A study of Caenorhabditis elegans with 2 samples.

Results

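The genes described here are hsp-90, hsp-1, hsp-110, hsp-70, hsf-1, sti-1 and daf-41. They encode cytosolic HSP90 and HSP70 chaperones of Caenorhabditis elegans, though not every cytosolic HSP70, the transcription factor that controls heat shock genes, and a pair of HSP90 partner proteins. They were named one by one, and all 7 were found among the 19973 protein-coding genes of the annotation. Occupancy by NFYA-1 was measured by chromatin immunoprecipitation and sequencing in a single group of 2 biological replicates. The samples were whole hermaphrodite late embryos of strain OP404, whose genotype is given as unc-119(tm4063) III; wgIs404. This transgenic line stably expresses NFYA-1 with a GFP-FLAG tag at its C terminus, and the precipitation used an antibody against GFP, according to the sample descriptions, while another label gives nfya-1 as the antibody. The labels do not give the promoter of the transgene, and whole embryos mix all cell types, so the cells in which a region was occupied cannot be told apart. No other genotype or condition was part of the series, and nothing could be compared between conditions.

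NF-Y is a heterotrimeric factor whose A subunit gives it its affinity for CCAAT boxes, which stand in many animal promoters. HSP90 and HSP70 fold and hold client proteins in the cytosol, and co-chaperones set the pace of their ATP cycles and pass clients between them. Heat shock factor binds inverted repeats of the unit GAA, known as heat shock elements, and raises transcription of chaperone genes when proteins misfold.

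A gene was said to have a peak when the summit of a region in the authors' thresholded list lay in a window reaching 1000 bp upstream and 100 bp downstream of at least 1 of its coding transcript starts. This peak list held 4098 regions, and the longer list from both replicates pooled held 15515. Signal is the deposited enrichment value of the authors' caller, whose scale is not given, and ranks count from the strongest region of a list. In the peak list signals ran from 58.2 to 9543. Read depth is unknown, because the lists hold no read counts. Many transcripts of this species are trans-spliced, so an annotated start can lie downstream of the true one. A value in the pooled list has no replicate error, so the signal and rank in each replicate's own list stand beside it. Replicate 1 had 21476 regions in its own list and replicate 2 had 28596, and the signals of separate lists are not compared with each other.

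The sequences under the summits are shown first because they hold the CCAAT boxes and heat shock units described further on, together at some genes and apart at others. Each runs 5′ to 3′ along the strand of the named gene, in build ce11 from the RefSeq copy of WBcel235, and covers 50 bp to each side of the summit unless stated otherwise. Capitals mark CCAAT on either strand (read as ATTGG on the opposite strand) and the inverted pairs GAANNTTC and TTCNNGAA, which read the same way on both strands. Where these pairs overlap, or abut as they do in daf-41, the capitals run together. The hsp-90 window (V:14685745-14685845) holds CCAAT between both kinds of pair, and that of sti-1 (V:773402-773502) holds CCAAT beside a pair.
hsp-90: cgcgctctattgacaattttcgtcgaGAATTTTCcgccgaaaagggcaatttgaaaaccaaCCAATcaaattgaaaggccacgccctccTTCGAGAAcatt
sti-1: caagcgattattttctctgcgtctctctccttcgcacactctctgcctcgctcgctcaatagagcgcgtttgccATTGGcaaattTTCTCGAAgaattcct

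The windows of hsp-110 (III:8447105-8447205, minus strand) and hsp-1 (IV:17278525-17278625) hold heat shock pairs and no CCAAT. In hsp-110 overlapping pairs give 3 alternating units in a row. The stretch for daf-41 (III:5275005-5275197, minus strand) runs from 50 bp upstream of the summit down to the nearest CCAAT of its region, to show that this CCAAT and its heat shock pairs all lay outside the 50 bp window.
hsp-110: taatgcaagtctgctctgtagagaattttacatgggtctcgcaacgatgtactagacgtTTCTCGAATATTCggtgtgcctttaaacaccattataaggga
hsp-1: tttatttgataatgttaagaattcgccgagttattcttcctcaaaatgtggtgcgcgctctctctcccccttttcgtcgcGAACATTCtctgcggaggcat
daf-41: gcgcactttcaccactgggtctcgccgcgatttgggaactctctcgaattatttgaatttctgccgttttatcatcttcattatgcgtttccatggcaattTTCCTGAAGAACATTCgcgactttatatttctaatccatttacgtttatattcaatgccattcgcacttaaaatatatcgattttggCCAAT

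NFYA-1 peaks stood at the promoters of 6 of the 7 genes, while hsp-70 had only a region below the threshold. By comparison 14.0% of all coding genes had a peak in the same window. In the pooled list all 7 had a region, against 30.1% of coding genes. In signal hsp-90 led by a wide margin, followed by hsp-110, hsp-1, sti-1, hsf-1 and daf-41. The median signal of the 6 peaks was 277.7, whereas the median over the strongest peak of all 2790 genes with a peak was 113. Each replicate taken alone gave the same 6 genes among its 4098 strongest regions, where 13.3% (replicate 1) and 14.2% (replicate 2) of coding genes had one. These counts are descriptions without a test, because the genes were chosen with earlier results of these data known. They also rest on how a peak is given to a gene. If each peak counts only for its nearest coding start, 3 of the 7 genes have a peak, namely hsp-1, sti-1 and hsf-1, against 10.5% of coding genes under the same rule. In the pooled list that rule leaves 4 of the 7, against 24.7%.

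**Figure D1:**
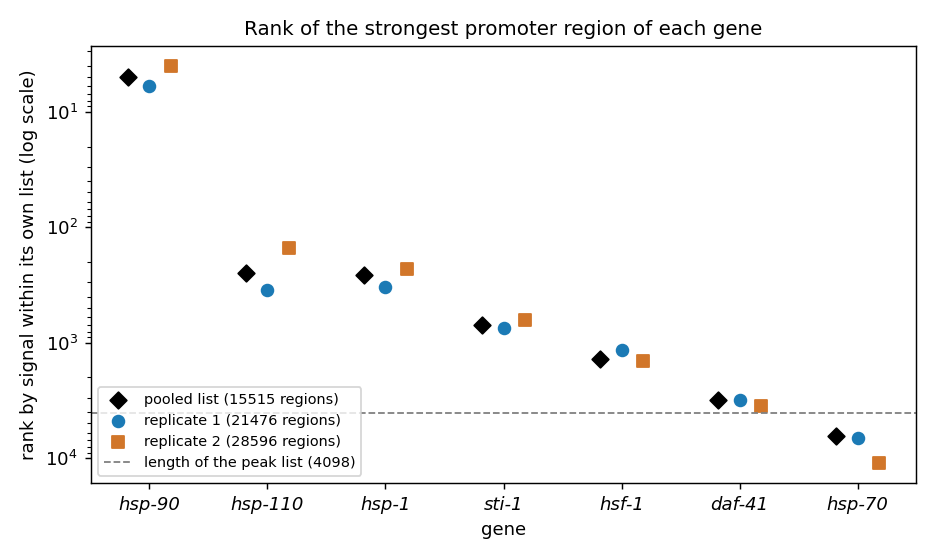
Rank by signal of the strongest promoter region of each gene, on a log scale with the strongest at the top, in the pooled list (diamonds), replicate 1 (circles) and replicate 2 (squares). The dashed line marks rank 4098, the length of the peak list, and hsp-70 is the gene below it in all 3 lists.

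The HSP90 gene hsp-90, formerly called daf-21, had the peak ranked 5 in the peak list, with a signal of 3579 (V:14685596-14686036). It ranked 6 in replicate 1 and 4 in replicate 2, with signals of 1840 and 1747 in those lists, and its summit fell on the same base, V:14685795, in each. The region was 441 bp wide, above the 356 bp that most regions share. Annotation gives hsp-90 (WBGene00000915, V:14684918-14688545, plus strand) 2 coding starts. The summit lay 365 bp upstream of the inner start, inside an intron of the longer transcript. Counting only the outermost start would leave hsp-90 without a peak. On the other side the summit lay 310 bp upstream of C47E8.4, which is transcribed away from it, so the peak stands between the starts of both genes and cannot be given to either alone. Its CCAAT box lay 11 bp from the summit, counted to its nearest base as for all motifs here, and was centred 352 bp upstream of the inner hsp-90 start.

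The constitutive HSP70 gene hsp-1 (WBGene00002005, IV:17278959-17281330) had a peak of signal 340.3, ranked 260 (IV:17278484-17278669). Replicate 1 gave it a signal of 165.6 and rank 330, and replicate 2 gave 172.5 and rank 231. Its summit lay between genes, 384 bp upstream of the hsp-1 start in the pooled list, and no other coding gene had this summit in its window.

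The gene hsp-110 encodes the HSP110 protein, a nucleotide exchange factor that resets HSP70 for the next client (WBGene00016250, III:8443910-8446909, minus strand). Its peak had a signal of 348.7 and rank 249 (III:8447061-8447256), with 159.5 and rank 353 in replicate 1 and 198.7 and rank 152 in replicate 2. In the pooled list hsp-110 stood just above hsp-1, but replicate 1 gave the opposite order, so these neighbours do not differ beyond the replicates. All of the other 5 neighbouring pairs in the order of signal kept it in both replicates. The hsp-110 summit lay 246 bp upstream of its own start and 198 bp upstream of rpn-3, a proteasome subunit gene transcribed in the other direction.

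The adaptor gene sti-1, whose product bridges HSP70 and HSP90, lies at V:773518-774775 (WBGene00019983). Its peak was the narrowest of the 6, at 98 bp (V:773392-773489), with a signal of 215.0 and rank 702. In the replicates' own lists its region was not narrow, at 356 bp in replicate 1 and 350 bp in replicate 2. Replicate 1 ranked it 751 (signal 110.2) and replicate 2 ranked it 641 (signal 107.4). At 66 bp upstream of the start, its summit was the closest to a start among the 6, and no other coding gene shared it. The CCAAT box lay 24 bp from the summit on the strand opposite to the gene, 40 bp upstream of the start.

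The gene daf-41 encodes the p23 homologue, which stabilises the ATP-bound form of HSP90 (WBGene00022599, III:5273805-5274765, minus strand). It had the weakest of the 6 peaks, at 75.2 and rank 3154 (III:5274969-5275324), with rank 3107 in replicate 1 and 3513 in replicate 2. The signals in those lists were 41.2 and 33.2. The summit lay 382 bp upstream of daf-41 but 104 bp upstream of toc-1, the divergent neighbour. Among the 6 peaks those of hsp-90, hsp-110 and daf-41 were shared with another coding gene, and the summit was closer to the neighbour's start in each of these 3. Sharing was common in the series, at 47.6% of all genes with a peak.

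The heat shock factor gene hsf-1 (WBGene00002004, minus strand of chromosome I, 11953507 to 11963085) had a peak of signal 142.4, ranked 1386. Replicate 1 gave it rank 1166 (signal 85.4) and replicate 2 rank 1450 (signal 65.9). Its summit lay 96 bp upstream of the outer start, with no other coding gene sharing it. The region held 3 CCAAT boxes, 27, 69 and 147 bp from the summit, the most of the 7 genes. No heat shock pair lay within 50 bp of this summit.

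The heat-inducible HSP70 gene hsp-70 (WBGene00002026, minus strand of chromosome I, 9320325 to 9322519) had no peak. Its region in the pooled list had a signal of 38.4 and rank 6456, below the 58.2 at which the peak list ends. The region ranked 6753 in replicate 1 (signal 21.8) and 11092 in replicate 2 (signal 14.4). Those lists hold background regions as well as peaks, so presence in them does not show occupancy. The summit lay 102 bp upstream of hsp-70, within an intron of uggt-2 on the other strand. Within 50 bp of it no CCAAT was found. The embryos' temperature history is not in the labels, and whether hsp-70 was active in them was not measured.

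The 6 peaks differed among themselves in distance from the start and in base composition. Their summits lay from 66 to 384 bp upstream of the start, and the median over all genes with a peak was 243 bp (quartiles 135 and 436). GC content over the 101 bp at the summit ran from 40.6% at hsp-110 to 54.5% at hsf-1, where the median of peaks with a coding start was 48.5% (quartiles 43.6 and 52.5). Between the replicates the summits of the 7 genes lay 0 to 47 bp apart, with hsp-90 the closest and hsf-1 the farthest, so a motif near the edge of the 50 bp window can fall in or out with the replicate.

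A CCAAT box lay within 50 bp of the summit in 3 of the 6 peaks, those of hsp-90, sti-1 and hsf-1. For comparison, the share was 32.9% of all nuclear peaks, 23.0% of the 2214 peaks with a coding start in the window, and 17.3% of 101 bp windows centred 100 bp upstream of all coding genes. The CCAAT boxes of hsp-90 and hsf-1 lay within 50 bp of the summit in both replicates. That of sti-1 did so in replicate 1 alone, where the summit was 1 bp from the pooled one, against 24 bp in replicate 2. Within 25 bp of the summit only the box of hsp-90 remained. The daf-41 region held CCAAT near its edge, 138 bp from the summit, and the 200 bp to each side of the hsp-110 and hsp-1 summits held none. A match describes these letters and is not evidence of binding at them.

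Inverted pairs of heat shock units lay within 50 bp of the summit in 4 of the 6 peaks, those of hsp-90, hsp-1, hsp-110 and sti-1, against 6.37% of peaks with a coding start and 11.2% of the promoter windows. Heat shock factor acts at chaperone genes, so a high share can come with the choice of genes alone. A link of these pairs to NFYA-1 was not tested, here or for the other lists below. The sti-1 pair reached past the edge of its peak, though it lay inside the wider sti-1 regions of both replicates. Counted anywhere in the region of the peak list, the 4 genes hold daf-41 in place of sti-1. With 25 bp in place of 50 bp the pairs of hsp-90 and hsp-110 remained. The pair of hsp-1 fell outside the 50 bp around the summit of replicate 1, and that of sti-1 outside those of replicate 2. Both CCAAT and a pair stood at the summits of hsp-90 and sti-1, a combination found in 1.58% of peaks with a coding start. A run of 3 alternating units was found at hsp-110, in its window at all 3 summits (pooled and both replicates). It lay 9 bp from the pooled summit and 231 bp upstream of the hsp-110 start. A second such run lay closer to the gene, 109 bp upstream of the start, but outside the peak and 131 bp from the pooled summit. Among peaks with a coding start 0.542% held 3 units within 50 bp, and the share in promoter windows was 0.596%. The hsp-70 region below the threshold also held 3 units, 29 bp from its pooled summit and within 50 bp of that of replicate 1 but not of replicate 2, while 0.603% of pooled regions with a coding start did.

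**Figure D2:**
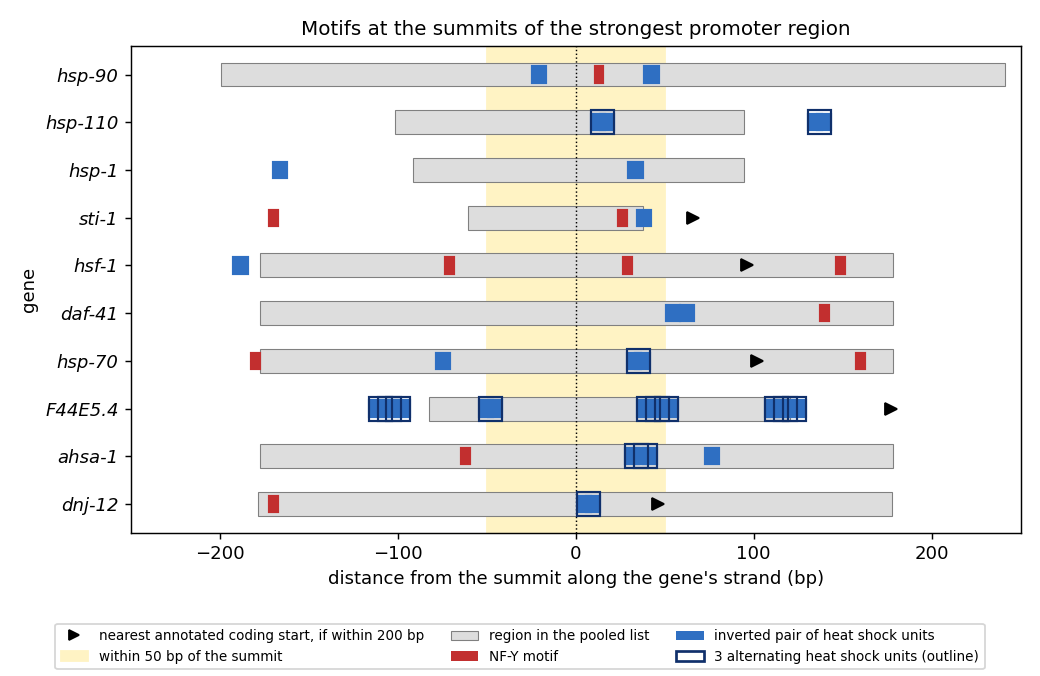
Positions of NF-Y motifs (red), inverted pairs of heat shock units (blue) and runs of 3 alternating units (outlined) within 200 bp of the summit or within the region, along the strand of each gene, for the 7 genes and for F44E5.4, ahsa-1 and dnj-12. Grey bars are the regions, and the shaded band is the 50 bp to each side. In the band hsp-90, sti-1 and hsf-1 have an NF-Y motif. Runs of 3 units lie in it at hsp-110, hsp-70, F44E5.4, ahsa-1 and dnj-12.

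Runs of 3 units under NFYA-1 summits were rare, and 5 of the 12 peaks with a coding start that held them lay at genes of the HSP90 and HSP70 system. Over the 34 genes listed for that system, the 7 included, 22 had a peak (14.0% of coding genes), in 21 distinct regions. Those 21 regions were 0.949% of the 2214 peaks with a coding start. The 5 peaks stood at hsp-110 and rpn-3, at F44E5.4 and F44E5.5, at ahsa-1 and C01G10.7, at dnj-12 and mtx-1, and at hip-1 and mlc-5, and none of these 5 had CCAAT within 50 bp. The hip-1 region ranked 4983 in replicate 1, outside the 4098 strongest regions of that list. The motifs and lists were not fixed independently of earlier results, so this count is a description. The windows of F44E5.4 (II:11759358-11759618, 130 bp to each side of the summit, minus strand) and ahsa-1 (V:15085556-15085656, minus strand) are shown for comparison with hsp-110 because they hold the longest such stretches. The F44E5.4 window holds 4 separate stretches, of which the first and last are inverted copies of each other.
F44E5.4: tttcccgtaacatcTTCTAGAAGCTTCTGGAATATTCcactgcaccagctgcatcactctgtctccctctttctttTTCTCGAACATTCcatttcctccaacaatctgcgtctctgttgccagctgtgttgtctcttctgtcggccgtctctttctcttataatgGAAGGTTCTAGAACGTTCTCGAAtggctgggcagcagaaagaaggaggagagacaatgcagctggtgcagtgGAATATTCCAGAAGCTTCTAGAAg
ahsa-1: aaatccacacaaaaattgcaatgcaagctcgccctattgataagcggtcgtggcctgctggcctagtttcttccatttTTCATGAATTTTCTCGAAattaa

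Among the other HSP90 and HSP70 family genes, 5 of 11 had a peak (14.0% of coding genes), and genes for the same compartment differed. The endoplasmic reticulum HSP70 gene hsp-3 had a signal of 5097 (rank 3), above hsp-90, and its paralogue hsp-4, the stress-induced BiP gene, had no region in the pooled list within its window. The pooled summit nearest to hsp-4 lay 552 bp downstream of a start, outside that window. The endoplasmic reticulum HSP90 gene enpl-1 had 2381 (rank 9), while hsp-75, the mitochondrial HSP90 gene, had its nearest pooled summit 7.61 kb from its start. The mitochondrial HSP70 gene hsp-6 had 222.7 (rank 656), with its peak also upstream of C37H5.5. Like hsp-90, the genes hsp-3, enpl-1 and hsp-6 had CCAAT within 50 bp of the summit, where 23.0% of peaks with a coding start did. The summit at F44E5.4 and F44E5.5, the other family genes with a peak, had none. The divergent cytosolic HSP70 genes F44E5.4 and F44E5.5 shared a peak of 240.4 (rank 570), 177 and 174 bp upstream of their starts. Both are near-identical, heat-inducible copies. No 36-base stretch of the 101 bp at their summit had another exact copy in the nuclear genome, but the rest of the peak was not checked. With the bases beside them, the first and last stretches printed for F44E5.4 lie outside those 101 bp. They match as inverted copies over more than 36 bases. No other exact copy was found for the 101 bp at the summits of the 7 genes either.

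Of 13 other co-chaperone genes, 10 had a peak, against the same 14.0% of coding genes, and their signals ran from 60.0 to 287.7. The strongest was dnj-13, a J-domain gene of the kind that starts the HSP70 cycle, at 287.7 (rank 397). It was followed by ahsa-1, the homologue of the HSP90 ATPase activator AHA1, at 217.4 (rank 685), and by the immunophilin gene fkb-6 at 207.1 (rank 765). The BAG-domain genes unc-23 and bag-1 had 195.7 (rank 841) and 194.9 (rank 847), and the J-domain gene dnj-19 had 177.0 (rank 984). Both replicates kept dnj-13 first among the co-chaperone genes, but not the pooled order below it. In replicate 1 ahsa-1 ranked 1287 and unc-23 ranked 559, whereas in replicate 2 they ranked 400 and 1368. All 10 lay below hsp-90, hsp-110 and hsp-1 in signal. The kinase adaptor gene cdc-37 had no pooled region within its window, and the myosin chaperone gene unc-45 had a pooled region of 52.5, below the threshold. Counting only nearest starts, 5 of the 13 had a peak, and 3 of the 11 family genes, where 10.5% of coding genes did. CCAAT lay within 50 bp of the summit in 4 of the 10 (pph-5, dnj-19, fkb-6 and ttc-4), against 23.0% of peaks with a coding start. An inverted heat shock pair did in 7, ahsa-1, dnj-13, unc-23, dnj-19 and fkb-6 included, against 6.37%. The pair of unc-23 fell outside the 50 bp around the summit of replicate 1, and that of dnj-19 outside those of replicate 2.

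**Figure D3:**
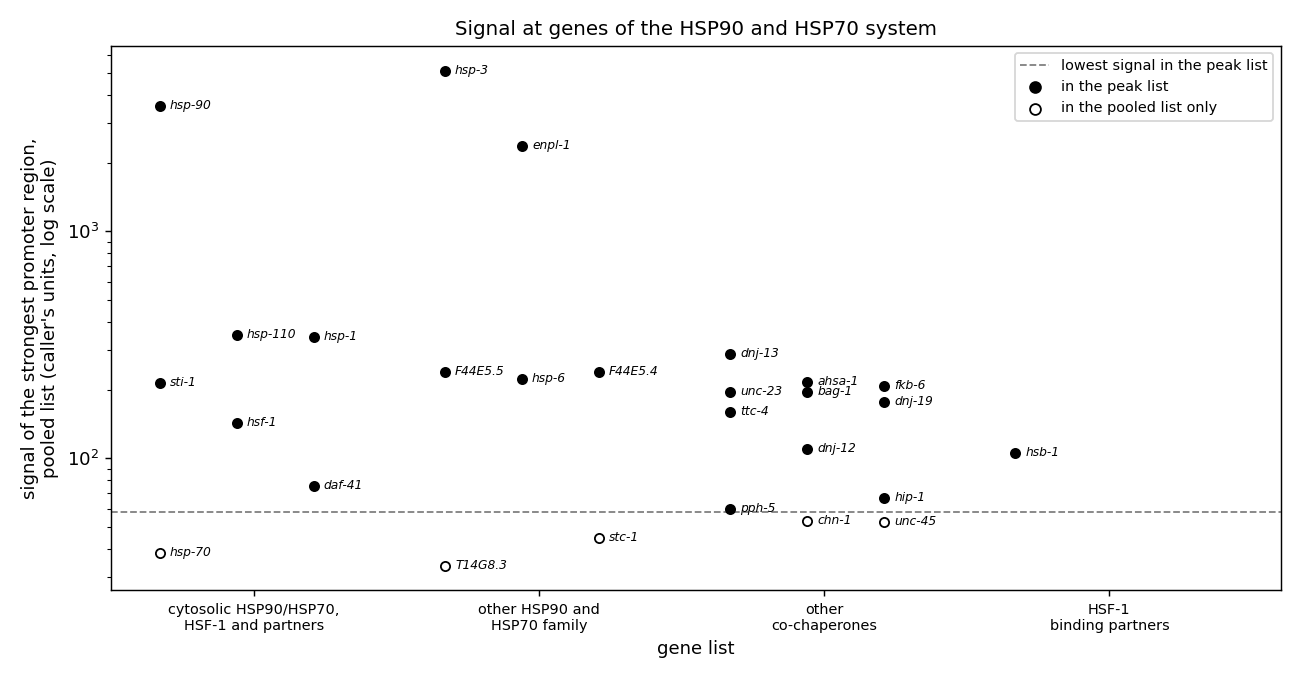
Signal of the strongest promoter region of each gene in the pooled list, on a log scale in the caller's units, by gene list. Filled points are in the peak list and open points are below it; the dashed line is the lowest signal of the peak list, 58.2, and hsp-70, at 38.4, is the open point among the 7 genes.

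Of 3 genes for proteins that bind HSF-1, hsb-1 had a peak, at 104.9 (rank 2140), shared with let-99, where 14.0% of coding genes had one. Neither ddl-1 nor ddl-2 had a pooled summit within its window. The hsb-1 signal was below that of hsf-1 itself, and no CCAAT or heat shock pair lay within 50 bp of the hsb-1 summit, the nearest CCAAT being 51 bp away.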

How the data were processed

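NFYA-1-GFP chromatin immunoprecipitation was sequenced in 2 replicates, per the labels. The authors deposited narrowPeak lists in build ce11: 1 per replicate, 1 on pooled replicates (peaks with background regions) and 1 that passed their reproducibility analysis, per the listings deposited with them. The sources used here name no aligner, peak caller or threshold. Signal values per region are the authors', and nothing was rescaled. No region ended beyond its chromosome in WBcel235. The labels number the replicates as biological and give no batch.

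Coding starts (29314) came from Ensembl release 115. Windows, distances and motifs were computed with Python 3.11.15 and pandas 2.3.3, and the functions recovered all 200 boxes and 9 window edges planted in simulated data. A motif had to lie wholly within 50 bp of the summit, on either strand. All counts are descriptions, with no test. The members, lists and motifs were chosen with earlier results of these data known. Of the listed names hyou-1 and cns-1 matched no gene. Named were all 7 genes, genes sharing their summits, up to 6 genes per list by signal and up to 2 without a peak. All 12 peaks with 3 units with their genes (dnj-12, mtx-1, hip-1 and mlc-5 among them), and ttc-4, pph-5 and chn-1, were named after their values were seen. The alternatives changed the window, the assignment to starts, the motif distance, the signal range and the replicates used. The ce10 lists were not used.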

Additional observations from a re-analysis of the deposited data

How the results depend on the processing

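With each summit given only to its nearest coding start, 3 in place of 6 of the 7 genes had a peak and 4 in place of 7 a pooled region, since the other genes share their summits with divergent neighbours. The same setting left 3 of 11 family genes (5 before) and 5 of 13 co-chaperone genes (10 before). Within 25 bp of the summit, 1 gene had CCAAT in place of 3, in the peak list and in the pooled list, and 2 genes had a heat shock pair in place of 4. Anywhere in the region, 5 genes had CCAAT in the pooled list. In the upper 50% of peaks by signal no HSF-1 partner gene remained (0 in place of 1), 5 of the 7 genes had a peak (daf-41 was lost), and 8 co-chaperone genes did. Under the nearest-start rule 10.5% of coding genes had a peak and 24.7% a pooled region. Shares over all genes or peaks were not computed for the other windows, motif distances and signal range. Those counts therefore cannot be read against all genes.

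Without either replicate the peak count stayed at 6 and the pooled count at 7, the CCAAT count ranged from 2 to 3 in both lists, the count with a heat shock pair was 3 each time, and co-chaperone genes with a peak ranged from 9 to 10. Without replicate 1 the co-chaperone gene chn-1 came in and pph-5 dropped out, and without replicate 2 hip-1 dropped out. The family and partner counts stayed at 5 and 1. Of all coding genes 13.3% had one of the 4098 strongest regions of replicate 1, and 14.2% one of replicate 2. No share per replicate was computed for the pooled, CCAAT and heat shock pair counts. The pooled count includes hsp-70, at ranks 6753 and 11092, where presence does not show occupancy. Windows of 500 bp or 2000 bp upstream left all 6 peaks in place, and that of 500 bp left 9 co-chaperone genes, without ttc-4. The alternatives for heat shock pairs and for the other lists were chosen after seeing the data. Depth is unknown, and occupancy at genes without a region was not detectable here.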

Other observations

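Weaker regions surrounded some of the 7 genes. Within 3 kb of hsp-90 the pooled list held 8 further regions, with signals from 22.7 to 79.1, and 3 of them were in the peak list. Around hsp-1 there were 5, from 26.5 to 35.5, none in the peak list. The region 3 kb to either side of hsp-70 held none besides the one at its start, hsp-110 had 1 (73.5, in the peak list), hsf-1 had 3, sti-1 had 2 and daf-41 had 1.

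The other 7 peaks with 3 heat shock units within 50 bp of the summit stood at cls-2 and R107.5 (signal 347.1), tent-5 (238.5), mbf-1 and nse-4 (147.8), Y54G9A.5 (141.3), ZK1290.5 (109.7), cyn-7 and bath-36 (102.0), and lea-1 (61.9). The cyclophilin gene cyn-7 was in none of the lists.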
